A study of Mus musculus with 4 samples.

Results

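The RNA of 45 autophagy and mitophagy genes was followed in 4 heart libraries of mice. The genes were taken from a list of symbols by their known function, with no measured value in the rule, but the list was drawn up with earlier results of these data known. All 45 of 45 were found among the 12408 genes of the deposited data. They were described in 8 roles, from initiation to the mTORC1 kinase complex, which restrains autophagy, and its regulators.

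Autophagy is the process by which a cell encloses its own proteins and organelles in a double membrane and delivers them to the lysosome. The ULK1 kinase complex and the VPS34 lipid kinase complex start the membrane, a ubiquitin-like conjugation system attaches LC3 and GABARAP proteins to it, and cargo receptors tie the cargo to those proteins. Mitophagy is the removal of mitochondria by this route, started either by PINK1 and Parkin or by receptors on the mitochondrial surface such as BNIP3, BNIP3L and FUNDC1. In the heart it is known for the turnover of mitochondria in cardiomyocytes.

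The mice were C57BL/6 and 3 months old, and total RNA of the heart was sequenced. Every mouse carried floxed copies of WW45, which encodes the Hippo pathway scaffold Salvador and is listed as Sav1. Mice called CT here had the floxed gene alone (WW45 flox/flox). Mice called cKO also had a Cre recombinase under the alpha-MHC promoter, which is active in cardiomyocytes, so Cre itself and the deletion cannot be told apart. For each genotype 1 library is labelled as baseline conditions, and 1 came 4 weeks into transverse aortic constriction (TAC), which loads the left ventricle with pressure. No sham-operated group is labelled, so surgery and pressure load cannot be told apart either. The 4 groups were CT baseline, CT TAC, cKO baseline and cKO TAC, with 1 library each, and the labels do not say whether a library held RNA of 1 mouse or of several. A comparison of 2 of them compares those libraries and not the conditions, it has no replicate check, and it has no p-value.

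Levels are in CPM, the reads of a gene scaled to library size, on the authors' scaling. Ratios between 2 libraries are differences of the deposited log2 CPM. The authors had added about 1 read to each gene before the logarithm, which draws ratios of genes with few reads towards 0. Each ratio has a 95% exact (Clopper-Pearson) interval from the recovered reads, given as a range of the linear ratio. It covers counting error only, since amplified reads without molecular identifiers are not independent molecules. A gene is called apart when the log2 ratio is at least 1 in size, which is 2-fold, and the interval excludes 1.

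The libraries held 1587840 to 2796547 recovered reads, and the median member had 70 to 149 reads, so that members with few reads have wide intervals. The median over all genes was 30 to 48 reads, so members and all genes are not matched for depth. The targeted gene Sav1 (chr12:69965012-69987002, mm10) had 49.3 CPM in CT baseline, 35.4 CPM in CT TAC, 39.8 CPM in cKO baseline and 46.2 CPM in cKO TAC. The library labelled cKO TAC was thus not below the library labelled CT TAC (log2 ratio 0.38, interval 0.941 to 1.81), the deleted exons cannot be seen in a value per gene, and Sav1 overlaps Atl1 on the other strand. At baseline its cKO to CT log2 ratio was -0.31, with an interval of 0.590 to 1.09 that includes 1. The labels of the cKO libraries therefore have no check from this gene, and each genotype ratio is between libraries labelled cKO and CT.

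The 10 cardiomyocyte markers were present in every library and together made up 135833, 132715, 116677 and 103525 CPM in CT baseline, CT TAC, cKO baseline and cKO TAC. None of the 10 was called apart at 2-fold in any pair. With the interval alone, 8 of 10 were lower and 1 higher in TAC than at baseline in each genotype. In cKO against CT, 7 of 10 were lower in each state, and 2 (baseline) and 3 (TAC) were higher. All genes gave 10.4% to 15.2% lower and 9.26% to 16.4% higher by this rule. The median log2 ratios of these markers were -0.22 and -0.18 for load in CT and cKO and -0.12 and -0.13 for genotype at baseline and under TAC. The 10 fibroblast markers summed to 1683, 6216, 2860 and 7442 CPM in the same order of libraries. Of these, 8 of 10 were called higher in TAC than at baseline in each genotype (all genes 6.04% in CT and 3.68% in cKO). Between genotypes, 6 of 10 were called higher in cKO than in CT at baseline (all genes 3.26%) and 1 of 10 under TAC (all genes 2.93%). The 10 macrophage markers summed to 427.0, 641.9, 1002 and 874.5 CPM, with 7 of 10 called higher in cKO than in CT at baseline (all genes 3.26%). Erythroid markers summed to 1092, 737.0, 1565 and 2240 CPM. All 3 that were found, of 5 listed, were called higher in cKO TAC than in CT TAC (all genes 2.93%). None of the markers given here was at 0 in any library. Markers of endothelial, mural, lymphocyte, neutrophil and skeletal muscle cells were also looked up and are not described here. Some of those were at 0 in a library. The part of these cell types in the ratios below was not tested. In whole-heart RNA, fewer cells of a type and less RNA per cell cannot be told apart.

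Promoter sequence is shown for 4 of the members that were called apart in a pair of libraries and had a promoter in the reference table. Fundc1, which also met both conditions, is not shown. Those shown are Bnip3, a mitophagy receptor, Gabarapl1, a GABARAP protein, Foxo3, a transcription factor that activates autophagy genes, and Atg3, the enzyme that passes LC3 to its lipid. Each line runs 5′ to 3′ on the strand of the gene, from 250 to 61 bases before the RefSeq start (GRCm38.p6). Capitals mark the E-box CACGTG, the CLEAR box TCACGTGA that TFEB is known to bind, and the TEAD letters GGAATG or their reverse complement CATTCC.
Bnip3, chr7:138909567-138909756, minus strand: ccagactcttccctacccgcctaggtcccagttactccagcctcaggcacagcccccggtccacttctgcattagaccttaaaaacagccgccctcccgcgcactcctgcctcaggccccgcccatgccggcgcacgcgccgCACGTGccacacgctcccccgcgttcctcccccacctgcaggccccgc
Gabarapl1, chr6:129532942-129533131, plus strand: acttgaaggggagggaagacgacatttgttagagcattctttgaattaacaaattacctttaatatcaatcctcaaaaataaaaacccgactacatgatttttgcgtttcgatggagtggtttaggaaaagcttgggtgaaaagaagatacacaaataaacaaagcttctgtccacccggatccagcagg
Foxo3, chr10:42276756-42276945, minus strand: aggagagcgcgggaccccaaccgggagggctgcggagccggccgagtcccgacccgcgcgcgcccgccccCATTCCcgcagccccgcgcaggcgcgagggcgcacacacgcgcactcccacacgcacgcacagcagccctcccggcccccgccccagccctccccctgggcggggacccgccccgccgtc
Atg3, chr16:45158579-45158768, plus strand: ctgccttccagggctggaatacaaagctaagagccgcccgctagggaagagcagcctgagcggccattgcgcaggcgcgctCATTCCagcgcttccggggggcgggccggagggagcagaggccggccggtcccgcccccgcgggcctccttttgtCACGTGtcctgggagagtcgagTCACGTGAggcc

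Promoters of 36 of the 45 members were matched, giving 40 windows of 190 bases, and both strands were searched. The CLEAR box was in the window of Atg3 and of no other matched member, against 0.393% of 32851 windows of all genes. The E-box, which lies within the CLEAR box, was in windows of 3 matched members (Atg3, Atg7 and Bnip3) or 7.5% of member windows, against 4.03% of all. The TEAD letters were in those of Atg3, Foxo3, Gabarap, Gabarapl2 and Map1lc3b, 12.5% of member windows against 10.2% of all. The HIF core ACGTG, which lies within both boxes, was in 22.5% of member windows against 12.2% of all. The FoxO letters TGTTTAC were in none of the member windows, against 2.49% of all. Only these exact letters were searched, so other forms of a FoxO site would be missed. Such matches describe letters in the windows and show no binding.

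Levels per kilobase of exon spanned a wide range, from Pink1, the kinase that marks damaged mitochondria, at a mean of 171 CPM per kb over the 4 libraries to Deptor, an inhibitor of mTOR, at 0.736 CPM per kb. Next to Pink1 stood the cargo receptor Sqstm1 (p62) at 163 CPM per kb, then Map1lc3a at 142 and Gabarap at 107 CPM per kb. Parkin RNA, listed as Park2, was near the bottom at 0.913 CPM per kb and rested on 5.5 to 9.5 reads per library. The autophagy kinase Ulk1 and the VPS34 gene Pik3c3 lay between, at 19.4 and 7.29 CPM per kb. These are whole-heart levels, and the exon lengths come from GENCODE, which may differ from the annotation of the authors.

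**Figure D1:**
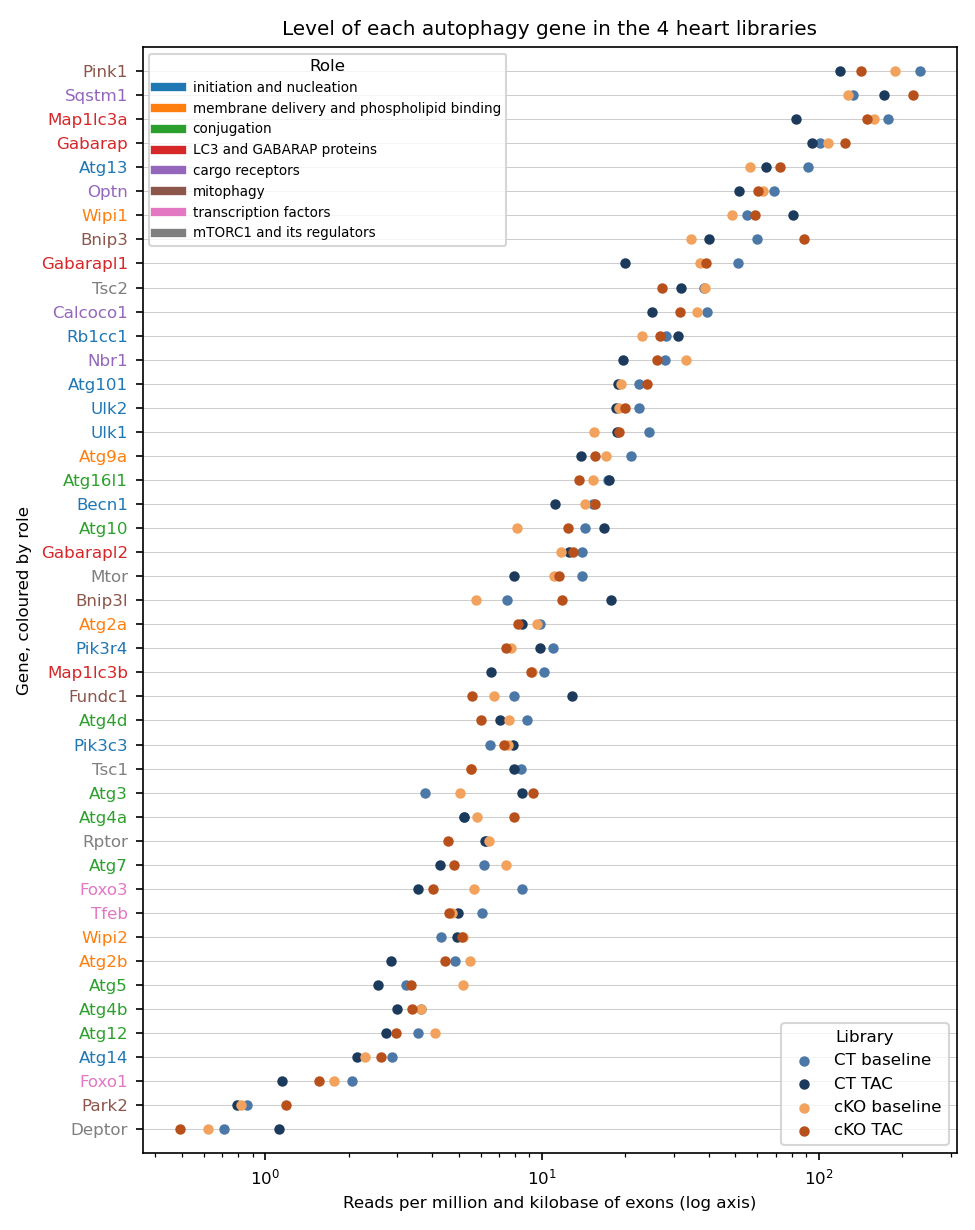
Level of each of the 45 genes in CPM per kb of exon (log axis), ordered by the mean of the 4 libraries, with 1 point per library and gene names coloured by role. Pink1, Sqstm1, Map1lc3a and Gabarap lead, at means of 171 to 107 CPM per kb, and Park2 and Deptor are lowest.

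Most members were lower in the loaded CT library than in the unloaded one. The median log2 ratio of CT TAC to CT baseline was -0.28 over the 45 members, against 0.01 over all 12408 genes, and 34 of 45 were below 0. Called apart were 5 of 45 members, against 10.7% of all genes. Atg3 and Bnip3l were higher in CT TAC, against 6.04% of all genes called higher, and Map1lc3a, Gabarapl1 and Foxo3 were lower, against 4.67% called lower. By this rule the count of called members is therefore close to the background share. With no interval asked for, the same 5 members were apart, against 16.8% of all genes. Asking only that the interval exclude 1 gave 5 members higher and 18 lower, against 16.4% and 15.2% of all genes. The median member had more reads than the median gene, and more reads alone make an interval exclude 1 more readily. Counts that use the interval, here and in the pairs below, are therefore not like for like with the shares of all genes.

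The loaded cKO library did not show the same shift. The median log2 ratio of cKO TAC to cKO baseline was -0.04, against -0.00 over all genes, with 19 members above 0 and 26 below. Bnip3 and Bnip3l were called apart, 2 of 45 against 6.51% of all genes. Both were higher (3.68% of all genes), and no member was called lower (2.83%). With the interval alone, 5 members were higher and 3 lower, against 11.2% and 10.9%.

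Between genotypes, the 2 states gave medians of opposite sign. At baseline the median cKO to CT ratio (log2) was -0.18, with 32 of 45 members below 0, and 0 of 45 were called apart against 5.06% of all genes (3.26% higher, 1.8% lower). Under TAC it was 0.16, with 30 of 45 above 0 (all genes 0.01). Here Bnip3 was called higher and Fundc1 lower, 2 of 45 against 5.02% of all genes (2.93% higher, 2.09% lower). With the interval alone, 1 member was higher and 11 lower at baseline, against 9.26% and 10.4% of all genes, and 12 were higher and 6 lower under TAC, against 9.5% and 11.2%. Scaling by library totals, which raised the median of all genes to 0.10 in both genotype pairs, gave member medians of -0.09 at baseline and 0.25 under TAC. These 4 pairs reuse the same 4 libraries, and a low value in CT TAC enters both the load ratio in CT and the genotype ratio under TAC.

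That library was the lowest of the 4 for 23 of 45 members, against 26.3% of all genes. CT baseline was the lowest for 3 (26.5% of all genes), cKO baseline for 9 (22.3%) and cKO TAC for 10 (24.9%). CT baseline was the highest for 20 of 45, against 25.6% of all genes.

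**Figure D2:**
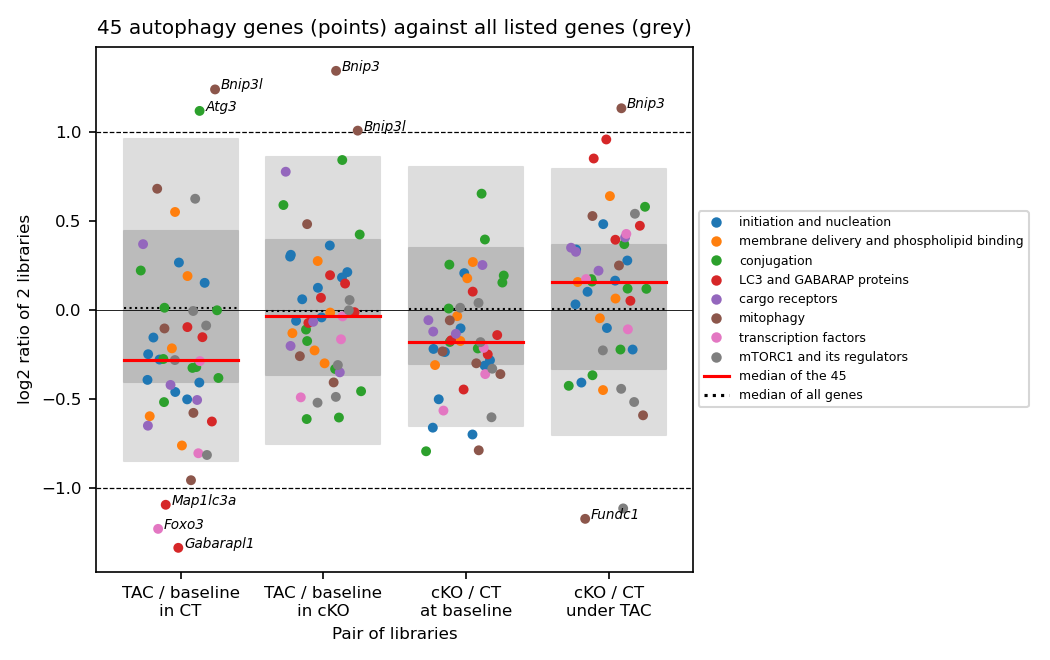
Log2 ratio of each of the 45 genes (points, coloured by role) in the 4 pairs of libraries. Grey boxes span the central part of all 12408 genes (dark, quartiles; light, 10th to 90th percentile), red lines are the member medians (-0.28, -0.04, -0.18 and 0.16), dotted lines the medians of all genes, and dashed lines mark 2-fold.

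In limma's fit over all 4 libraries, with an additive term for genotype and for TAC, no member passed an adjusted p (Benjamini-Hochberg over 12408 genes) of 0.05. For TAC this was 0 of 45 members against 1.82% of all genes, and for genotype 0 of 45 against 0.0242%. At an unadjusted p under 0.05 there were 9 members for TAC (all genes 16.2%) and 1 for genotype, Tsc1 (all genes 7.77%). Nearest was Bnip3l, with a log2 difference of 1.12 for TAC (SE 0.25, limma adjusted p 0.0529). The fit has 1 residual degree of freedom and leans on variance shared across genes, and the spread between mice of a group was not measured.

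Of the 9 initiation and nucleation genes, 7 had load ratios below 0 in CT (median -0.28) and 7 above 0 in cKO (median 0.18), with none called apart. The interval excluded 1 for 4 of the 9 in CT, all lower, and for 1 in cKO, which was higher. Atg13, which links ULK1 to its partners, had 335.8 CPM at baseline and 237.1 under TAC in the CT libraries, and 206.7 and 265.9 in the cKO libraries. CT baseline was highest and cKO baseline lowest. Its load ratios had opposite signs, -0.50 in CT (interval 0.630 to 0.790) and 0.36 in cKO (interval 1.12 to 1.48). The genotype ratio of Atg13 was -0.70 at baseline (interval 0.542 to 0.698) and 0.17 under TAC (interval 0.987 to 1.27).

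Ulk1, the kinase that starts autophagy, had 127.9 CPM in the CT library at baseline, 97.3 in the CT library under TAC, and 80.7 and 99.5 CPM in the cKO libraries at baseline and under TAC. As with Atg13, CT baseline was highest and cKO baseline lowest, and the baseline genotype ratio was -0.66 (interval 0.513 to 0.774). Becn1, the Beclin 1 subunit of the VPS34 complex, had 72.3, 52.4, 67.3 and 73.4 CPM in the same order. Its exons overlap those of Cntd1 on the other strand. Only CT TAC was low for Becn1, with a load ratio of -0.46 in CT (interval 0.566 to 0.924) and a genotype ratio under TAC of 0.48 (interval 1.08 to 1.82). Rb1cc1 (FIP200, the scaffold of the ULK1 complex) was lower in cKO in both states, at -0.28 and -0.22, and its intervals excluded 1 in both. Pik3r4 (VPS15) was -0.50 at baseline (interval 0.517 to 0.95) and -0.41 under TAC (interval 0.545 to 1.03).

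A group of 5 members delivers or binds membrane, and their median ratios were small in all pairs (-0.21, -0.13, -0.03 and 0.06 for the load ratios in CT and cKO and the genotype ratios at baseline and under TAC). Wipi1, which reads the lipid made by VPS34, stood at 234.6 (baseline) and 343.9 CPM (TAC) in the CT libraries and at 208.0 and 251.8 CPM in the cKO libraries. It was higher in both TAC libraries, by 0.55 in CT (interval 1.31 to 1.64) and 0.28 in cKO (interval 1.05 to 1.40), and lower in cKO than in CT under TAC, at -0.45 (interval 0.649 to 0.825). Its close relative Wipi2 had 22.2, 25.5, 26.9 and 26.7 CPM, and the interval of all 4 ratios included 1. Wipi2 was among the highest members of the baseline genotype pair, at 0.27. Atg2b, a lipid transfer protein, was lowest in CT TAC at 21.5 CPM, against 33.7 to 41.6 CPM elsewhere. Atg9a, the scramblase of the donor vesicles, had a CT load ratio of -0.60 (interval 0.527 to 0.823). Its values held parts of reads, as arise when a read is split between places, and its exons overlap those of Ankzf1 on the other strand.

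Most conjugation genes had few reads, and only 2 of their 36 intervals excluded 1. Atg3 had 7.78 CPM at baseline and 17.5 under TAC in the CT libraries, and 10.4 and 19.0 in the cKO libraries, from 17 to 35 reads. Both TAC libraries were above both baseline libraries. Its load ratio was 1.12 in CT (interval 1.27 to 4.06) and 0.84 in cKO (interval 0.998 to 3.48), and limma gave 0.98 for TAC (SE 0.34, adjusted p 0.192). Its genotype ratios were 0.40 and 0.12, with both intervals including 1.

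Atg7, the enzyme that activates both conjugation pathways, went the other way, with 25.2, 17.5, 30.2 and 19.6 CPM in CT baseline, CT TAC, cKO baseline and cKO TAC. Its load ratios were -0.52 and -0.61, and both intervals included 1 (0.447 to 1.06 and 0.413 to 1.02). Atg5, the partner of Atg12, had 7.60, 5.99, 12.2 and 7.89 CPM, with load ratios of -0.32 and -0.60 and a baseline genotype ratio of 0.65 (interval 0.843 to 3.23). Both of these genes were lower in TAC in each genotype, but by less than the counting intervals allow to be told from 0. Atg10, which joins Atg12 to Atg5, had 22.6, 26.5, 12.9 and 19.6 CPM and was lower in cKO at baseline, at -0.79 (interval 0.329 to 0.946). Under TAC its genotype ratio was -0.43 (interval 0.471 to 1.15). The other 5 conjugation genes (Atg4a, Atg4b, Atg4d, Atg12 and Atg16l1) had intervals that included 1 in all 4 pairs.

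The LC3 and GABARAP proteins, which coat the growing membrane and hold the cargo receptors, included 3 members (Map1lc3a, Map1lc3b and Gabarapl1) that were low in CT TAC. All 5 CT load ratios were below 0 (median -0.63), with 3 of 5 intervals excluding 1 and 2 members called apart. All 5 genotype ratios under TAC were above 0 (median 0.47), with 4 of 5 intervals excluding 1 and none called apart. These signs were the same under the other scalings tried, which could hardly have changed them. Library totals gave medians of -0.62 and 0.57 for the 2 pairs, and median-of-ratios size factors gave -0.63 and 0.47. In cKO the load ratios of the 5 ran from -0.07 to 0.20, and every interval included 1. Map1lc3a had 197.6 CPM in the CT library at baseline, 92.3 in the CT library under TAC, and 175.6 and 167.0 CPM in the cKO libraries at baseline and under TAC. The single low library was CT TAC, whose CPM interval of 79.5 to 107 lay below those of the others. The CT load ratio was -1.09 (interval 0.393 to 0.553), and the genotype ratio under TAC was 0.85 (interval 1.5 to 2.18).

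Gabarapl1 showed the same order in CT, with 92.7 CPM in CT baseline and 36.4 in CT TAC, and had 67.9 CPM in cKO baseline and 71.2 in cKO TAC. Its CT load ratio of -1.33 (interval 0.299 to 0.512) was the lowest among the members, while the cKO ratio was 0.07 (interval 0.809 to 1.36). Between genotypes it was -0.45 at baseline (interval 0.581 to 0.920) and 0.96 under TAC (interval 1.46 to 2.64), just under 2-fold. Scaling by library totals took the latter to 1.05 and past 2-fold. Limma's difference for TAC was -0.63 (SE 0.30, adjusted p 0.327).

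Map1lc3b, the LC3 form most used as an autophagosome marker, had 52.6, 33.9, 47.7 and 47.3 CPM in CT baseline, CT TAC, cKO baseline and cKO TAC. It was also lowest in CT TAC, with a load ratio of -0.63 (interval 0.476 to 0.867). Gabarap (136.0, 127.3, 146.2 and 167.5 CPM) and Gabarapl2 (23.4, 21.0, 19.6 and 21.8 CPM) had load ratios whose intervals included 1 in both genotypes. Per kilobase, the 5 together stood at 353.4 (baseline) and 216.3 CPM (TAC) in the CT libraries and at 324.3 and 335.3 CPM in the cKO libraries. Map1lc3a made up 50.3% of this sum in CT baseline and 38.4% in CT TAC, where Gabarap at 43.6% was the leading form. In cKO the share of Map1lc3a was 48.7% at baseline and 44.8% under TAC, above that of Gabarap (33.4% and 37.0%).

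**Figure D3:**
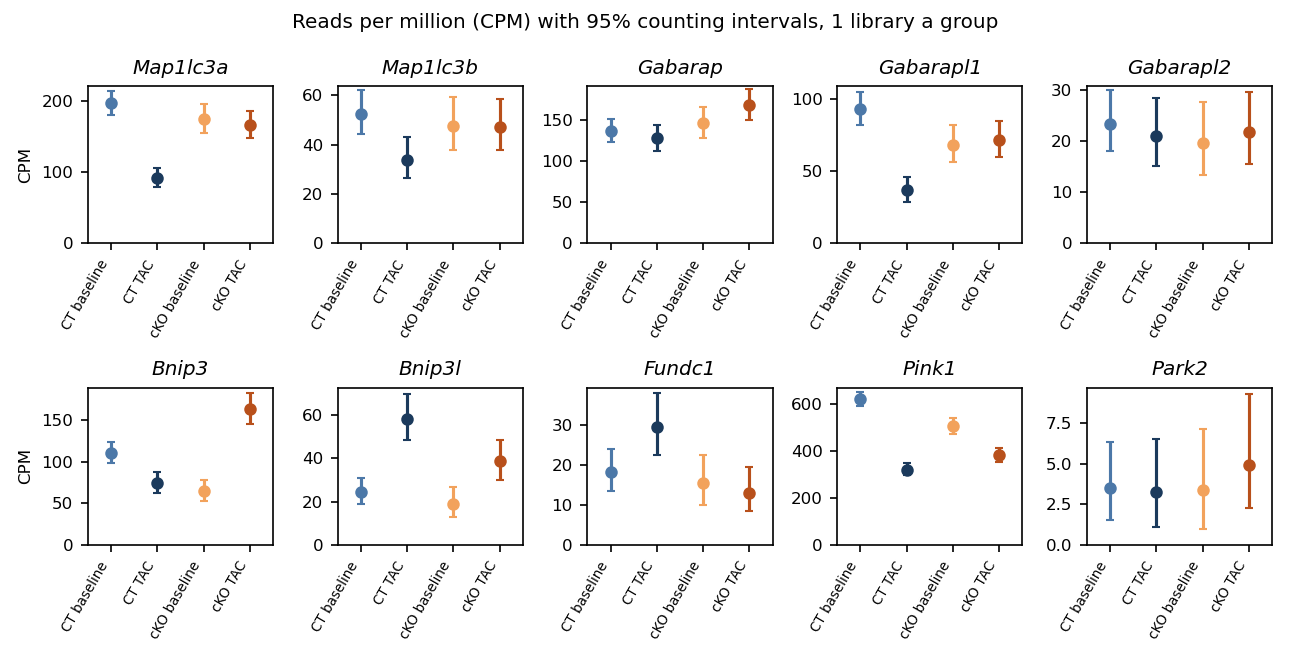
Levels in CPM of the 5 LC3 and GABARAP genes (top) and the 5 mitophagy genes (bottom) in the 4 libraries, 1 per group; bars are 95% counting intervals and do not show spread between mice. Map1lc3a, Map1lc3b and Gabarapl1 are lowest in CT TAC, Bnip3 is highest in cKO TAC at 164 CPM, and Bnip3l is higher in both TAC libraries than at baseline.

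Among cargo receptors, Sqstm1 went opposite to the rest. Sqstm1, which ties ubiquitin-marked cargo to LC3 and is itself degraded by autophagy, had 375.7 CPM at baseline and 485.7 under TAC in the CT libraries, and 361.2 and 619.2 in the cKO libraries. Both TAC libraries were above both baseline libraries, with load ratios of 0.37 in CT (interval 1.18 to 1.41) and 0.78 in cKO (interval 1.55 to 1.90). Exons of Sqstm1 overlap those of Mrnip on the other strand. Limma gave 0.57 for TAC (SE 0.18, adjusted p 0.146), and the values of Sqstm1 held parts of reads.

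Nbr1, Optn and Calcoco1 were lower in CT TAC than in CT baseline, at -0.50, -0.42 and -0.65, and all 3 intervals excluded 1. Nbr1, a receptor for ubiquitin-marked aggregates, had 145.6, 102.5, 173.6 and 136.1 CPM in CT baseline, CT TAC, cKO baseline and cKO TAC. It was lower under load in cKO too, at -0.35 (interval 0.658 to 0.931), and higher in cKO than in CT in both states, at 0.25 and 0.41 (intervals 1.02 to 1.39 and 1.10 to 1.61). The values of Nbr1 held parts of reads. Optn, a mitophagy receptor that works with PINK1 and Parkin, had 180.5, 134.8, 164.5 and 157.2 CPM. Calcoco1, a receptor for endoplasmic reticulum and Golgi cargo, had 149.0, 94.8, 137.0 and 119.1 CPM. All 4 cargo receptors were higher in cKO TAC than in CT TAC, by 0.22 to 0.41, and the interval of 3 excluded 1.

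The mitophagy genes had the widest range of ratios of any role in both load pairs and under TAC, and their signs differed. Bnip3, a receptor on the outer mitochondrial membrane that is induced by low oxygen, had 111.2 CPM in the CT library at baseline, 74.4 in the CT library under TAC, and 64.2 and 163.7 CPM in the cKO libraries at baseline and under TAC. The cKO TAC library was highest and its CPM interval overlapped none of the others. The load ratio was -0.58 in CT (interval 0.546 to 0.817) and 1.34 in cKO (interval 2.03 to 3.21). Between genotypes it was -0.79 at baseline (interval 0.458 to 0.724) and 1.13 under TAC (interval 1.80 to 2.70).

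For Bnip3, with ratios of opposite sign, limma's additive fit gave 0.38 for TAC (SE 0.35, adjusted p 0.629) and 0.17 for genotype (SE 0.35, adjusted p 0.934). A predicted gene, Gm45507, lies on the other strand over 504 bases of the Bnip3 exons, and the sources used here do not say whether reads were counted by strand. The E-box of the Bnip3 promoter shown above holds the HIF core letters, and binding there was not tested.

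Bnip3l (NIX), the relative of Bnip3 known for clearing mitochondria from maturing red cells, was higher under load in both genotypes. It stood at 24.5 (baseline) and 58.4 CPM (TAC) in the CT libraries and at 19.0 and 38.6 CPM in the cKO libraries. The 2 TAC libraries were above the 2 baseline libraries, and no CPM interval of a TAC library reached that of the baseline library of its genotype. The load ratios were 1.24 in CT (interval 1.75 to 3.28) and 1.01 in cKO (interval 1.32 to 3.21). Under TAC it was lower in cKO than in CT, at -0.59 (interval 0.485 to 0.895). The limma adjusted p for TAC, 0.0529, was 0.0304 when only genes with a mean of at least 5 CPM were fitted, and it ran from 0.0304 to 0.335 over the settings tried. Erythroid markers, given above, also differed between the libraries, and the part of red cells in the Bnip3l ratios was not tested.

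Fundc1, a mitophagy receptor regulated by phosphorylation, had 18.3 CPM at baseline and 29.6 under TAC in the CT libraries, and 15.5 and 12.9 in the cKO libraries. CT TAC was the high library, with a load ratio of 0.68 in CT (interval 1.09 to 2.42) and -0.26 in cKO (interval 0.467 to 1.56). Under TAC the genotype ratio was -1.17 (interval 0.264 to 0.724). Fundc1 also held parts of reads, and restricting the pair to genes with whole reads removes this call.

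Pink1 had 620.9 CPM in the CT library at baseline, 320.0 in the CT library under TAC, and 504.6 and 380.7 CPM in the cKO libraries at baseline and under TAC. The 2 baseline libraries were above the 2 TAC libraries, and the 4 CPM intervals did not overlap. The load ratio was -0.96 in CT (interval 0.470 to 0.565) and -0.41 in cKO (interval 0.681 to 0.835), and limma gave -0.68 for TAC (SE 0.19, adjusted p 0.101). Its genotype ratio was -0.30 at baseline (interval 0.747 to 0.884) and 0.25 under TAC (interval 1.07 to 1.33). Park2 had 3.25 to 4.90 CPM, and the depth did not allow a difference to be detected.

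Of the 3 transcription factors, Foxo3 and Foxo1 had CT load ratios whose intervals excluded 1, and Foxo3 alone was called apart. In cKO no load interval of the 3 excluded 1, and between genotypes at baseline that of Foxo3 did. Foxo3 stood at 62.6 (baseline) and 26.5 CPM (TAC) in the CT libraries and at 42.2 and 29.9 CPM in the cKO libraries. CT baseline was high and the TAC libraries were low. The load ratio was -1.23 in CT (interval 0.304 to 0.578) and -0.49 in cKO (interval 0.488 to 1.02), and the baseline genotype ratio was -0.56 (interval 0.502 to 0.896). Limma gave -0.86 for TAC (SE 0.26, adjusted p 0.146).

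Foxo1, the related factor, had 17.8, 9.98, 15.3 and 13.6 CPM in CT baseline, CT TAC, cKO baseline and cKO TAC. Its CT load ratio was -0.80 (interval 0.315 to 0.964), and in cKO it was -0.16 (interval 0.490 to 1.61). Tfeb, which switches on lysosome and autophagy genes, had 24.5, 19.97, 19.0 and 18.5 CPM, and all 4 of its intervals included 1.

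The mTORC1 complex restrains autophagy when nutrients are ample, and the group of 5 holds its kinase Mtor, its scaffold Rptor and 3 genes that inhibit it (Tsc1, Tsc2 and Deptor). Mtor had 122.3 CPM at baseline and 69.4 under TAC in the CT libraries, and 97.3 and 101.2 in the cKO libraries. CT TAC was the low library, as for Map1lc3a, with a load ratio of -0.81 in CT (interval 0.462 to 0.694) and 0.06 in cKO (interval 0.837 to 1.29). The genotype ratio of Mtor was -0.33 at baseline (interval 0.654 to 0.964) and 0.54 under TAC (interval 1.16 to 1.83). The genotype ratios of the other 4 genes under TAC ran from -1.11 to -0.23, with intervals that excluded 1 for Tsc1 and Tsc2 and included 1 for Deptor and Rptor.

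Tsc2, which with Tsc1 forms the brake on mTORC1, had 244.6 CPM in the CT library at baseline, 201.3 in the CT library under TAC, and 246.9 and 172.0 CPM in the cKO libraries at baseline and under TAC. It was lower in both TAC libraries, by -0.28 in CT (interval 0.725 to 0.932) and -0.52 in cKO (interval 0.598 to 0.808). Its exons overlap those of Pkd1 on the other strand, and its values held parts of reads. Tsc1, which also held parts of reads, had 65.2, 61.4, 42.8 and 42.8 CPM. It was lower in both cKO libraries, at -0.60 (interval 0.490 to 0.871) and -0.52 (interval 0.521 to 0.936). Limma gave -0.56 for genotype (SE 0.22, adjusted p 0.584). Deptor had 6.30, 9.98, 5.51 and 4.35 CPM, and its genotype ratio under TAC of -1.11 had an interval of 0.166 to 1.03. Rptor (raptor, the mTORC1 scaffold) had 30.2 to 42.5 CPM, and all 4 intervals included 1.

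**Figure D4:**
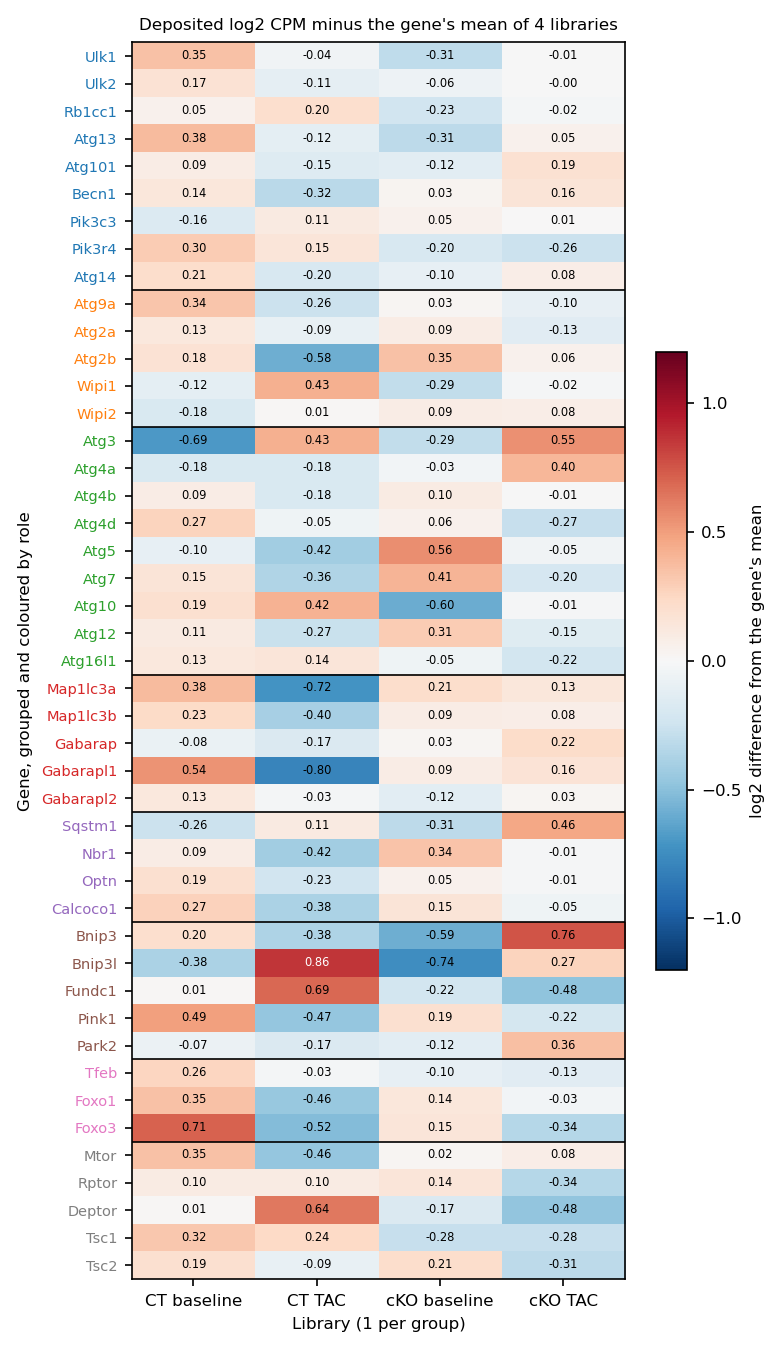
Deposited log2 CPM of each of the 45 genes in each library minus the gene's own mean over the 4 libraries (1 per group), grouped by role. CT TAC is the lowest library for 23 of the 45 genes, among them 4 of the 5 LC3 and GABARAP genes, and CT baseline the highest for 20.

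The load response, taken as the log2 ratio of TAC to baseline, was higher in cKO than in CT for 30 of 45 members, against 49.3% of all genes, and the median difference was 0.30 (all genes -0.01). By role the median difference was 0.64 for the transcription factors, 0.61 for the LC3 and GABARAP proteins, 0.56 for initiation, 0.55 for mitophagy and 0.38 for the cargo receptors. It was -0.01 for membrane delivery, -0.07 for conjugation and -0.24 for the mTORC1 group. With 1 library a group this difference has no test.

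Across the 45 genes, which share libraries and are not replicates, the load ratios in CT and cKO had Pearson r 0.40 and Spearman rho 0.34 (all genes 0.31 and 0.30). The 2 ratios had the same sign for 27 of 45 members and for 7710 of all 12408 genes, a similar share. Load ratios on opposite sides with both intervals excluding 1 were seen for 2 members, Atg13 and Bnip3, against 1.86% of all genes. Genotype ratios on opposite sides were seen for 4 members, Gabarapl1, Bnip3, Pink1 and Mtor, against 2.78% of all genes. Those 4 were lower in cKO at baseline and higher in cKO under TAC. The counts of 2 and 4 members rest on intervals that exclude 1. They too are not like for like with the shares of all genes, since the median member had more reads.

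**Figure D5:**
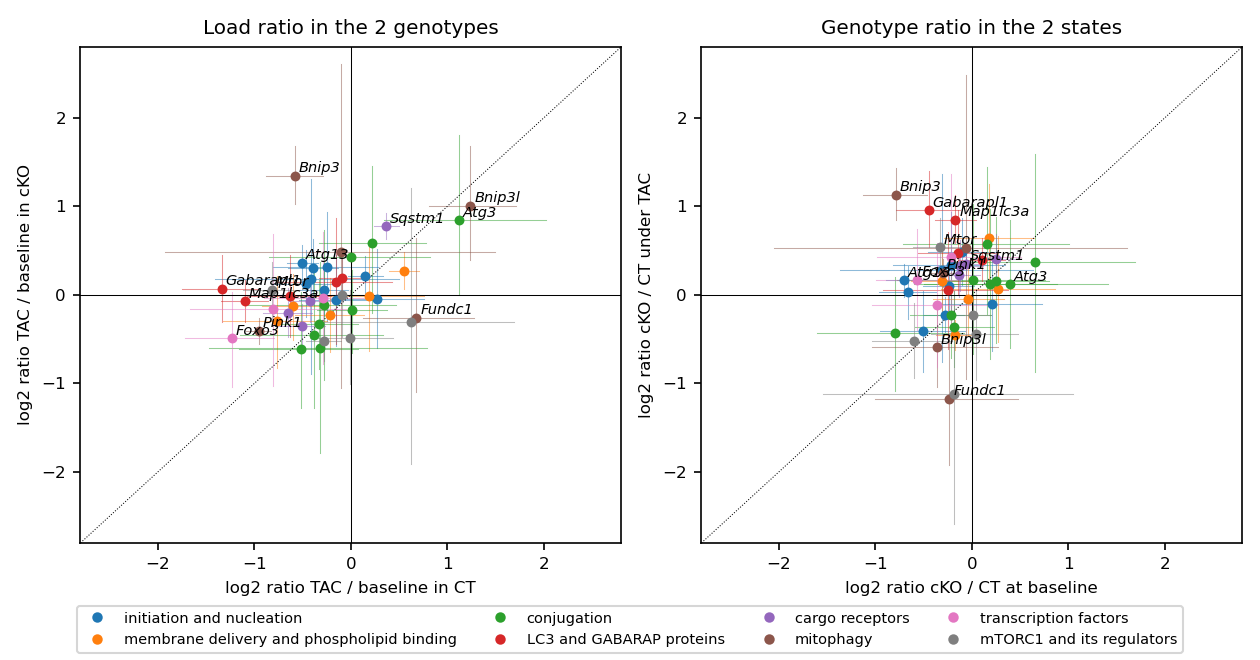
Left, log2 ratio of TAC to baseline in cKO against the same ratio in CT; right, log2 ratio of cKO to CT under TAC against the same ratio at baseline, for the 45 genes coloured by role, with 95% counting intervals and a dotted line of equality. Bnip3 lies in the upper left of both panels, and Bnip3l and Atg3 lie in the upper right of the left panel.

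Of 121 further symbols from neighbouring steps of the pathway, 116 were found and the other 5 are not analysed here. Their median log2 ratios were closer to 0 than those of the members, except for load in cKO, at -0.15 and 0.08 for load in CT and cKO and -0.12 and 0.02 for genotype at baseline and under TAC. In CT TAC 3 of 116 were called higher than at baseline, against 6.04% of all genes, namely Sec62 (a receptor for endoplasmic reticulum turnover), Nipsnap3b and Hif1a, and 1 was called lower, against 4.67%, Bcl2l1 (Bcl-xL, which binds Beclin 1). Both shares lie below those of all genes. Hif1a encodes the oxygen-regulated subunit of HIF-1, a known activator of Bnip3. It stood at 68.1 (baseline) and 139.3 CPM (TAC) in the CT libraries and at 109.5 and 149.6 CPM in the cKO libraries. Bnip3 had 111.2 and 74.4 CPM in the CT libraries and 64.2 and 163.7 CPM in the cKO libraries, in the same order. A link of Hif1a to the Bnip3 ratios was not tested. In cKO, Ddit4 (REDD1, an mTORC1 inhibitor) was called higher and Rragd lower under load, 1 of 116 each, against 3.68% and 2.83% of all genes.

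At baseline 3 of 116 were called lower in cKO than in CT, Atg16l2, Akt1s1 and Ddit4, against 1.8% of all genes, and none higher, against 3.26%. Ddit4 had 124.9 CPM at baseline and 120.8 under TAC in the CT libraries, and 43.4 and 89.2 in the cKO libraries, so that cKO baseline was the low library. Under TAC 1 of 116 was called higher in cKO, against 2.93% of all genes, and none lower, against 2.09%. It was Fam134b, another receptor for endoplasmic reticulum turnover. Fam134b had 130.8, 72.7, 137.2 and 153.5 CPM in CT baseline, CT TAC, cKO baseline and cKO TAC, with CT TAC low as for Map1lc3a.

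In limma's fit, 2 of the 116 passed for TAC, near the 1.82% of all genes, and none for genotype, against 0.0242%. Sec62 rose by 1.11 (SE 0.22, adjusted p 0.0318), with 76.7 and 209.1 CPM in the CT libraries at baseline and under TAC and 72.8 and 125.1 CPM in the cKO libraries. Rab7, the small GTPase that brings autophagosomes to lysosomes, fell by 0.80 (SE 0.17, adjusted p 0.0434), with 465.2 and 260.1 CPM in CT and 406.8 and 239.3 CPM in cKO. Over the settings tried the adjusted p ran from 0.0183 to 0.359 for Sec62 and from 0.0289 to 0.381 for Rab7. Both calls were lost without the mean-variance trend (0.359 and 0.381) and without the term for genotype (0.152 and 0.167), and that of Rab7 also with library totals (0.0553).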

How the data were processed

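Mouse heart RNA, 1 library a group, was grouped by labelled genotype and surgery. The authors deposited log2 CPM per gene, as read from the values, since the headers give the library name alone. Per the submitters' processing notes, the tools and build include HISAT2, CASAVA, edgeR and mm10. The sources used here do not give the counter, annotation or gene filter. The values lie on a grid from which reads were recovered (1 read = 0.371 to 0.612 CPM). Between 88.6% and 89.0% of genes were whole (within 0.01), and 2449 genes, 11 members among them, held parts of reads. Those members were Atg9a, Atg5, Atg7, Atg16l1, Sqstm1, Nbr1, Fundc1, Park2, Rptor, Tsc1 and Tsc2. Intervals used rounded reads and scaled library sizes.

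A count test had been planned; because the files hold log2 values and parts of reads, limma (3.58.1, R 4.3.3) with a trend was used instead, and the procedure was tested on simulated data. Levels per kb used GENCODE vM21 exons, and the exons of 15 members overlap a gene on the other strand. Members, lists and rules were chosen with earlier results of these data known. Named in full were members called in a pair and the 3 highest and 3 lowest of each pair; Ulk1, Becn1, Pink1, Sqstm1, Mtor and Tsc1 and others were added as extremes of a role or after their values were seen.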

Additional observations from a re-analysis of the deposited data

Results flagged for a closer look

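Members whose ratio differed between genotypes or states are listed with the difference of the 2 log2 ratios; in each, both counting intervals excluded 1 and the signs were opposite, and the difference itself was not tested because each group held 1 library. The load response of Bnip3 was 1.92 higher in cKO than in CT, and the same 1.92 separates its genotype ratio under TAC from that at baseline, since both come from the same 4 values. The load response of Atg13 was 0.86 higher in cKO than in CT. Under TAC the genotype ratio was above that at baseline by 1.4 for Gabarapl1, by 0.87 for Mtor and by 0.55 for Pink1.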

How the results depend on the processing

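Of the values for all members together (counts of members called and medians), 56 were within their limits under the other settings and 7 moved. Calls of single genes were gained for Gabarapl1 and Bnip3l and lost for Sec62 and Rab7, under the settings given beside each. At 1.5-fold in place of 2-fold, 13 members were apart for load in CT, 5 for genotype at baseline and 6 for genotype under TAC, against 21.2%, 10.8% and 12.1% of all genes. With whole reads only, 1 member was apart for genotype under TAC, since Fundc1 has parts of reads and drops out. The same restriction took the member median for load in cKO from -0.04 to 0.02. In limma's fit with a mean of at least 5 CPM, 1 member (Bnip3l) passed for TAC, and at an unadjusted p, 9 passed for TAC and 1 for genotype. Scaling by library totals put the median of all genes at 0.10 in both genotype pairs and took the member medians there from -0.18 to -0.09 at baseline and from 0.16 to 0.25 under TAC. At baseline 16 in place of 13 members were above 0, and the medians of the cargo receptors and membrane delivery turned from -0.09 to 0.01 and from -0.03 to 0.06. No paired analysis was possible because each group holds 1 library and the labels give no replicate numbers. Leaving out a library empties a group, so that was not run. Depth limits the genes with few reads, Park2, Deptor, Atg5, Atg14 and Atg3 among them.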
